A study of Rattus norvegicus with 35 samples.

Results

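The genes of mitosis and of the G2 phase that leads up to it were described in rat converted hypoblast stem cells. The set held 46 genes, chosen by name for their roles in G2 and mitosis, and a record of the deposited count table was matched by RefSeq identifier to 41 of them, among 17198 genes in all. Top2a, Bub1b, Cenpe, Anln and Cdc25c were not analysed here. The hypoblast is the early embryonic layer from which the endoderm of the yolk sac forms. These cells come from rat embryonic stem cells that were kept in medium with 2% fetal bovine serum, PDGF, EGF and LIF. They were passaged from day 7 onwards and were collected on day 12 of differentiation. The libraries are 34 single cells, isolated in microfluidic chambers, and 1 bulk library labelled as a population control. All 35 shared the same derivation, medium and day, and no culture, passage number or batch is named, so the 34 cells count as 1 sample, as does the bulk library. With 1 sample in each, no difference was tested, and SDs describe the spread between cells.

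Entry into mitosis is driven by Cdk1, a kinase that is active only when bound to a cyclin. Many genes of this phase are repressed early in the cycle and are transcribed together in late S and G2, through promoter elements read by the DREAM, MuvB, B-Myb and FoxM1 proteins and by NF-Y. Once chromosomes are attached to the spindle, the anaphase-promoting complex destroys cyclin B and securin, and the cell divides. A cell's level of these transcripts is therefore widely used as a mark of its place in the cycle.

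The cells held 6288 to 503044 reads in genes, with a median of 266046, and the bulk library held 47121. Levels are counts scaled by the library's total (CPM), and 1 read was worth 1.99 to 159 CPM in a cell and 21.2 CPM in the bulk library. Detection of a gene means at least 5 CPM in a cell. In all, 22 cells had at least 50000 reads and at least 3000 genes with a read and are called gene-rich, and the other 12 had 349 to 2777 genes with a read. Of 10 core hypoblast markers, 9 were detected in at least 17 cells, the exception being Sox7 (12 cells). Of the 6 measured pluripotency markers Nanog and Utf1 were detected in 7 cells each, the others in fewer, and Esrrb had no read. Col1a2, a fibroblast collagen, was detected in C14, C17, C30 and C46. The gene-rich cells C17 and C46 had the lowest core hypoblast sums of the 22, at 738 and 482 CPM, beside a median of 10853. Without these 4 cells the mean summed level of the mitosis genes was 4063 CPM in place of 3957, and the median Spearman correlation (rho) between pairs of them over gene-rich cells was 0.35 in place of 0.33. A gene's reads grow with the length of its transcript, which is not in the files, so levels are compared between libraries and not between genes.

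The share of a cell's transcripts that belonged to mitosis and G2/M genes differed widely between cells. Summed over the 41 genes, the level was 3957 ± 3610 CPM in the cells (SD, n = 34), with 140 CPM in the lowest cell, a median of 2890 and 13105 CPM in the highest. It was 6303 CPM in the bulk library (297 reads, exact Poisson 95% interval 5606 to 7062 CPM). In the gene-rich cells the sum lay between 659 CPM in C15 and 12917 CPM in C37, a 19.6-fold range. Over the same cells, other lists ranged from 3.04-fold for a list of other mitosis genes to 38.7-fold for the core hypoblast markers. Lists with a sum of 0 in a cell are left out here. A wide range is thus not particular to these genes. The 6 gene-rich cells with the highest sums were C37, C25, C05, C17, C96 and C80. Each of them held 6908 CPM or more and had 33 to 39 of the 41 genes detected. At the other end, C26, C10, C43 and C15 held 659 to 1155 CPM and had 7 to 13 genes detected.

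The sum was spread over many genes in the gene-rich cells and rested on a few in the others. The gene with the most signal made up a median of 16.6% of the sum in the gene-rich cells (6.73% to 35.6%) and of 56.3% in the other 12 (20.6% to 76.9%). C03, the highest of all cells, owed 95.3% of its sum to Kif23 (5443 CPM), Cdc20 (5015 CPM) and Ccnb1 (2034 CPM). In C74 Ccnf made up 62.9% of the sum, in C39 Mki67 made up 70.9%, and in C94 Ccnb2 made up 76.9% on 13 reads of the whole set. A median of 24.5 members was detected in the gene-rich cells (7 to 39) and of 6.5 in the other 12 (2 to 15). Gene-rich cells were chosen by their genes with a read, a median of 4570 against 1856 in the other 12. Both contrasts therefore follow in part from the choice of cells. In the other 12 cells few members could be related to each other. For this reason the relations between genes are given over the 22 gene-rich cells.

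**Figure D1:**
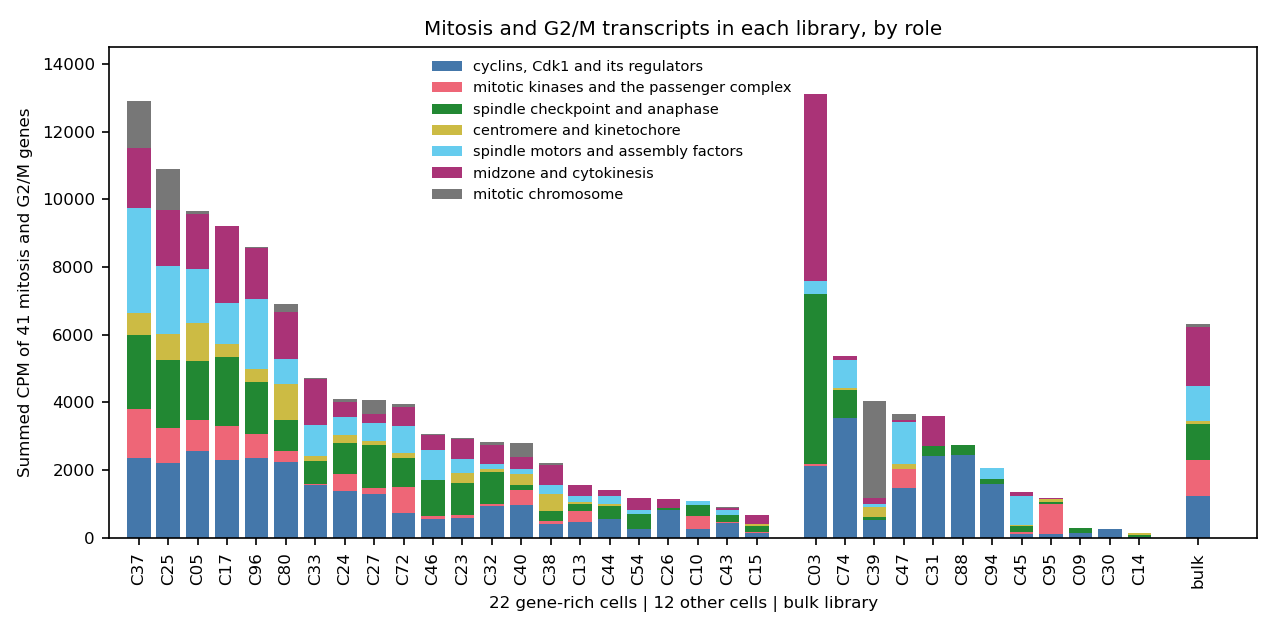
Summed level (CPM) of the 41 measured mitosis and G2/M genes in each library, stacked by role, with the 22 gene-rich cells on the left, the 12 other cells in the middle and the bulk library on the right, each block of cells in falling order. Among the gene-rich cells the stacks of C37, C25, C05, C17, C96 and C80 stand above the bulk library's 6303 CPM and hold most roles, whereas the stack of C03 (13105 CPM) consists almost wholly of 3 genes.

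Detection per cell was also set at equal depth. Thinned to the 47121 reads of the bulk library, 30 cells would be expected to hold at least 1 read of 2.93 to 35.7 members, with a median of 15.02, where the bulk library held 34; unthinned, a median of 16 members was detected over all 34 cells. The 4 shallower cells (C14, C30, C88 and C94) were left out of the thinning. Only C05, C17, C25, C37 and C96, at 34.7 to 35.7 expected members, stood above the bulk library. A library of that depth with the cells' mean composition would be expected to hold 36.9 members.

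The promoters of these genes are shown for the elements named above. The RefSeq windows used here (GRCr8) run from 250 bases before a gene's start to 50 after it, and 37 windows matched 36 of the 41 measured genes, Kif2c having a pair of them. Counted on both strands, with overlaps allowed, the letters TTTGAA or TTCGAA, the core of the cell cycle genes homology region (CHR), were in 27 of 37 windows (73.0%), against 19.7% of all 33469 rat promoter windows in the RefSeq table. CCAAT, the letters that NF-Y binds, was in 30 windows (81.1%), against 37.5% of all. At least 2 copies of CCAAT were in 62.2% of the members' windows, against 11.2% of all, and both elements in 64.9%, against 7.95%. Among the promoters of genes in the count table the share with both was 6.96%. No window of Aurka, Bub1 or Kif2c held either element. Windows of 5 genes are printed below, each as the 250 bases before the start, read 5′ to 3′ on the gene's own strand, for the B-type cyclins and their kinase, for the activator of their destruction, and for the gene that followed the others least in these cells. Capitals mark the letters of either element or their reverse complements.
Ccnb2 (chr8:79981659-79981908, minus strand): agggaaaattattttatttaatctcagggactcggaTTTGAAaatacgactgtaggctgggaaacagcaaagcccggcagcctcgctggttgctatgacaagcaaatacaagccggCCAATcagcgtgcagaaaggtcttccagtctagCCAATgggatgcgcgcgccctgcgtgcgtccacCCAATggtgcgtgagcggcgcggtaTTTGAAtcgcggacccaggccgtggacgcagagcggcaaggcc
Ccnb1 (chr2:33655226-33655475, minus strand): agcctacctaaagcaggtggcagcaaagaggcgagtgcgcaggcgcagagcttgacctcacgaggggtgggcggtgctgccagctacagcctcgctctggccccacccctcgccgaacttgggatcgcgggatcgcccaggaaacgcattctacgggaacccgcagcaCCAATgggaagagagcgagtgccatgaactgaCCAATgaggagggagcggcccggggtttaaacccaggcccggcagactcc
Cdk1 (chr20:19265043-19265292, plus strand): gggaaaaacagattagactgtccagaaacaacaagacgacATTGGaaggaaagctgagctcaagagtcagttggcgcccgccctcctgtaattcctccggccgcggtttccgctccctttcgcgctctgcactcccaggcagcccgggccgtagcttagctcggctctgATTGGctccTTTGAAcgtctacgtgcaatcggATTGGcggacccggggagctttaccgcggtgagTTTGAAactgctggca
Cdc20 (chr5:137255800-137256049, minus strand): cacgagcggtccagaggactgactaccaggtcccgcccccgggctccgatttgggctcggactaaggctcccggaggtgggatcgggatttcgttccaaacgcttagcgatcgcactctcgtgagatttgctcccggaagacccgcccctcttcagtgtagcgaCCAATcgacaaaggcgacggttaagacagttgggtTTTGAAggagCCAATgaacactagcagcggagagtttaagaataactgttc
Cks1b (chr2:177135334-177135583, minus strand): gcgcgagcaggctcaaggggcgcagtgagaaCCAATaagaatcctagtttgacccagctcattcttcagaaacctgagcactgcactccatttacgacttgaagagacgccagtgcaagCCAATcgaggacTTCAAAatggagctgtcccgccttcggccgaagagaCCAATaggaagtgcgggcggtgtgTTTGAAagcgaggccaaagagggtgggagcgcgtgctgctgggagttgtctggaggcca

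Of the printed promoters, that of Ccnb2 held 3 evenly spaced copies of CCAAT, 134, 101 and 68 bases before the start, and TTTGAA at 214 and 43 bases. Ccnb1 held CCAAT at 82 and 50 bases and neither TTTGAA nor TTCGAA. Cdk1 held the reverse complement of CCAAT at 210, 81 and 49 bases and TTTGAA at 72 and 16. Cks1b held both elements too, with CCAAT at 219, 131 and 83 bases, TTTGAA at 59 and its reverse complement at 119. Over the 22 gene-rich cells, Spearman's rho of a gene with the summed level of the other 40 was 0.01 to 0.78 (median 0.57) for the 24 genes with both elements and 0.29 to 0.83 (median 0.64) for the 12 with a window but not both. These matches describe letters in a window and not binding.

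The cyclins, Cdk1 and their direct regulators were the core of the set, and 5 of these 9 genes were detected in at least 17 cells. Over the whole set 14 of 41 genes (34.1%) reached 17 cells. The background was 17 percent of all genes, 27.1 percent of genes with a read and 54.1 percent of genes that averaged 20 CPM or more, where the members' share was 36.8% (14 of 38). Cdk1 itself was detected in 23 of 34 cells (67.6%, exact Clopper-Pearson 95% interval 49.5% to 82.6%), with a median of 87.1 CPM, a highest value of 603 CPM in C47 and 170 CPM in bulk. Ccnb1, the cyclin that opens mitosis with Cdk1, was also detected in 23 cells. It ran from 0 to 2034 CPM with a median of 56.3 in the cells and was at 722 CPM in bulk. Among the gene-rich cells it was detected in 20 of 22 and highest in C80 (1618 CPM). Ccnb2, the second B-type cyclin, was in 22 cells (median 20.2 CPM, highest 1590 CPM in C94, 0 reads in bulk).

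Ccna2, a cyclin that acts from S phase into G2, was detected in 16 cells, with a median of 0, 375 CPM in its highest cell (C31) and 127 CPM in bulk. Ccnf, an F-box protein that targets substrates for ubiquitination, was also in 16 cells, but C74 alone (3370 CPM) held 77.7% of its summed signal. Of the 22 gene-rich cells, 13 held both Ccna2 and Cdk1 and 6 held Cdk1 alone. Cdk1 was in 19 of the 22, so this overlap says little about their relation. The small Cdk-binding proteins differed from each other. Cks2 was in 21 cells (median 18.3 CPM, highest 308 CPM in C17, 42.4 CPM in bulk). Cks1b, which also serves the ubiquitin ligase that removes the inhibitor p27 before S phase, was in 28 cells (82.4%, interval 65.5% to 93.2%) and was the only member detected in all 22 gene-rich cells. There it lay between 42.8 and 412 CPM (203 ± 102, SD, n = 22), while the bulk library held no Cks1b read. Cdc25b, a phosphatase that activates Cdk1, was in 4 cells, with 221 CPM in C05. Cdca3, a trigger of mitotic entry, was in 15 cells, and C88 (1961 CPM) held 59.7% of its signal.

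The mitotic kinases were detected in fewer cells, none of the 6 genes of this role reaching 17. Plk1, which acts on centrosomes, kinetochores and cytokinesis, was in 10 cells (29.4%, interval 15.1% to 47.5%), with a highest value of 438 CPM in C47 and 467 CPM in bulk. Aurka, the kinase of spindle poles, was in 12 cells, all of them gene-rich, with a highest value of 419 CPM in C05 and 170 CPM in bulk. Nek2, a kinase that separates centrosomes, was in 11 cells and highest in C37 (263 CPM). The chromosomal passenger complex corrects attachments of chromosomes to the spindle. Its kinase Aurkb was in 15 cells and highest in C95 (833 CPM), and its subunits Cdca8 and Birc5 were in 15 and 11 cells. Birc5 stayed at or under 60.1 CPM in every cell, and all 11 cells that held it were gene-rich.

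The spindle checkpoint holds back anaphase until chromosomes are attached. Bub3, a checkpoint protein that binds Bub1 at kinetochores, was detected in 24 cells (median 125 CPM, highest 1078 CPM in C37, 297 CPM in bulk). It was in 21 of the 22 gene-rich cells. Its partner Bub1 was in 15 cells (highest 414 CPM in C27), the checkpoint kinase Ttk in 14 (258 CPM in C72) and Mad2l1, which blocks Cdc20, in 15 (338 CPM in C17). Cdc20, the activator of the anaphase-promoting complex, was in 16 cells, and C03 held 52.9% of its signal. Without C03 its mean was 135 CPM in place of 279, beside 467 CPM in bulk. Ube2c, the ubiquitin-conjugating enzyme of that complex, was in 14 cells (820 CPM in C74), and Pttg1, securin, in 20 (median 33.8 CPM, highest 292 CPM in C31).

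Centromere and kinetochore genes were detected in 9 to 16 cells each, beside a median of 16 over the 41 genes. They were almost not seen in bulk, where the 5 genes held 4 reads together. Cenpf, a large protein of the outer kinetochore, was in 16 cells, at 780 CPM in C05. Cenpa, the centromeric histone H3, was in 11 cells, all gene-rich. Ndc80, Nuf2 and Spc25, subunits of the complex that binds microtubules, were in 10, 16 and 9 cells, and their highest values were 132, 314 and 202 CPM. None of these 3 subunits had a bulk read.

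Among spindle motors and assembly factors, Tpx2, the activator of Aurora A, was in 18 cells (median 6.47 CPM, highest 453 CPM in C37, 127 CPM in bulk) and was the only one of 8 to reach 17 cells. Kif22, a motor on chromosome arms, was in 16 cells, at 820 CPM in C96. Kif11, which pushes the spindle poles apart, was in 12 cells (348 CPM in C05), and Kif2c, which dismantles microtubule ends, in 11 (316 CPM in C33). Dlgap5, a spindle-stabilizing factor, was in 16 cells, Ckap2 in 15, and Hmmr, a microtubule-binding protein of the spindle, in 11. Nusap1, which bundles spindle microtubules, was in 6 cells, all gene-rich, and C37 (823 CPM) held 51.1% of its signal.

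All 5 genes of the midzone and cytokinesis were detected in at least 17 cells. Kif23 and Racgap1 form centralspindlin, which gathers at the midzone. Kif23 was in 19 cells (median 24.3 CPM), with 5443 CPM in C03, a cell that held 55.9% of its signal, and with 646 CPM in the highest gene-rich cell, C17. Racgap1 was in 18 cells (median 7.66 CPM, highest 522 CPM in C32) and at 870 CPM in bulk, above every cell. Ect2, the exchange factor that activates RhoA at the cleavage site, was in 19 cells (356 CPM in C54). Prc1, which bundles midzone microtubules, and Kif20a, a midzone motor, were in 17 cells each, at up to 1095 CPM in C37 and 510 CPM in C33. Mki67, which coats mitotic chromosomes, was in 18 cells, with 2867 CPM in C39 and 1408 CPM in C37.

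**Figure D2:**
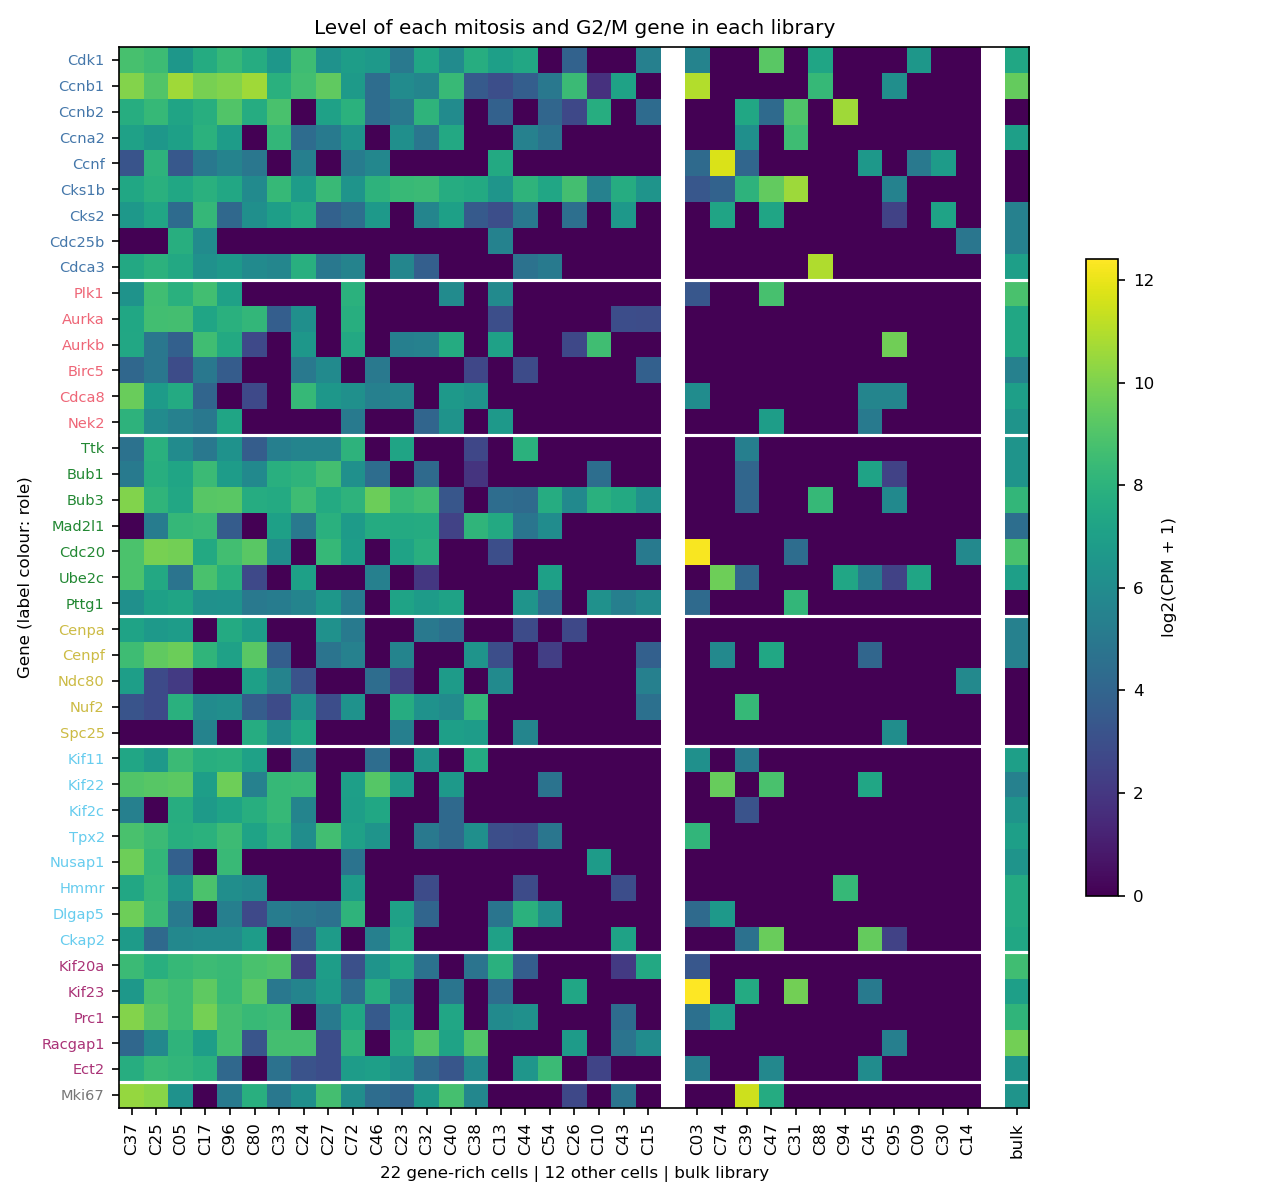
Level of each of the 41 measured genes (rows, label colour by role) in each library (columns: 22 gene-rich cells, 12 other cells, bulk library), as log2(CPM + 1) from 0 (dark) to above 12 (yellow). The 6 leftmost cells are filled in most rows, Cks1b is filled in all 22 gene-rich cells and empty in bulk, and the 12 other cells show few rows each with some very high values, as for Kif23 and Cdc20 in C03.

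A few cells carried the highest values. C37 was the highest cell for 7 of the 41 genes and C05 for 4, and C03, C17, C31 and C47 were so for 3 each. For 16 genes the highest value lay outside the gene-rich cells. In 6 genes (Ccnf, Cdc25b, Cdca3, Cdc20, Nusap1 and Kif23) a single cell held over 50% of the summed signal. The median over all cells was 0 for 25 of the 41 genes. Over the gene-rich cells alone, 30 of the 41 were detected in at least 11 of 22. Those cells were chosen for many genes with a read. No share over all genes is given for the counts in this paragraph, so they are not shown to be particular to these genes.

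Over the 22 gene-rich cells the genes varied together. Of the 820 pairs of members, 755 (92.1%) had a positive Spearman's rho, with a median of 0.33 and a range of −0.44 to 0.86. A rho of at least 0.5 was found for 176 pairs (21.5%), where the background over all pairs of genes detected in 3 or more of these cells was 1.39 percent, with a median of 0.01. These are descriptions over cells of 1 sample, which differ in depth. The summed level of the set had a rho of −0.41 with the library total (0.049 over all 34 cells) and of 0.13 with the number of genes with a read. The closest pairs were Plk1 with Nek2 (0.86), Cdc20 with Cenpf (0.82), Nuf2 with Racgap1 (0.81), Ccnb1 with Kif23 (0.81) and Bub1 with Tpx2 (0.80). Each role's sum followed the sum of the other roles, with rho between 0.62 for Mki67 alone and 0.88 for the spindle motors and assembly factors.

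Each gene was also set against the summed level of the other 40. All 41 values were positive, from 0.01 to 0.87 with a median of 0.59, and 25 were at least 0.5. The share of all genes at 0.5 is not given. Over 3972 other genes that averaged 20 CPM or more and were detected in 11 or more of these cells, the median rho with the members' sum was 0.01. Tpx2 (0.87), Cdca3 (0.83), Prc1 (0.78), Kif23 (0.76), Ccnb1 (0.76) and Bub1 (0.76) followed the rest most closely. The values under 0.3 were those of Cks1b (0.01), Spc25 (0.11), Racgap1 (0.26), Cdc25b (0.26) and Mad2l1 (0.29). Of these, Cdc25b and Spc25 were detected in only 3 and 8 of the gene-rich cells, whereas Cks1b was in all 22, Racgap1 in 17 and Mad2l1 in 15.

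**Figure D3:**
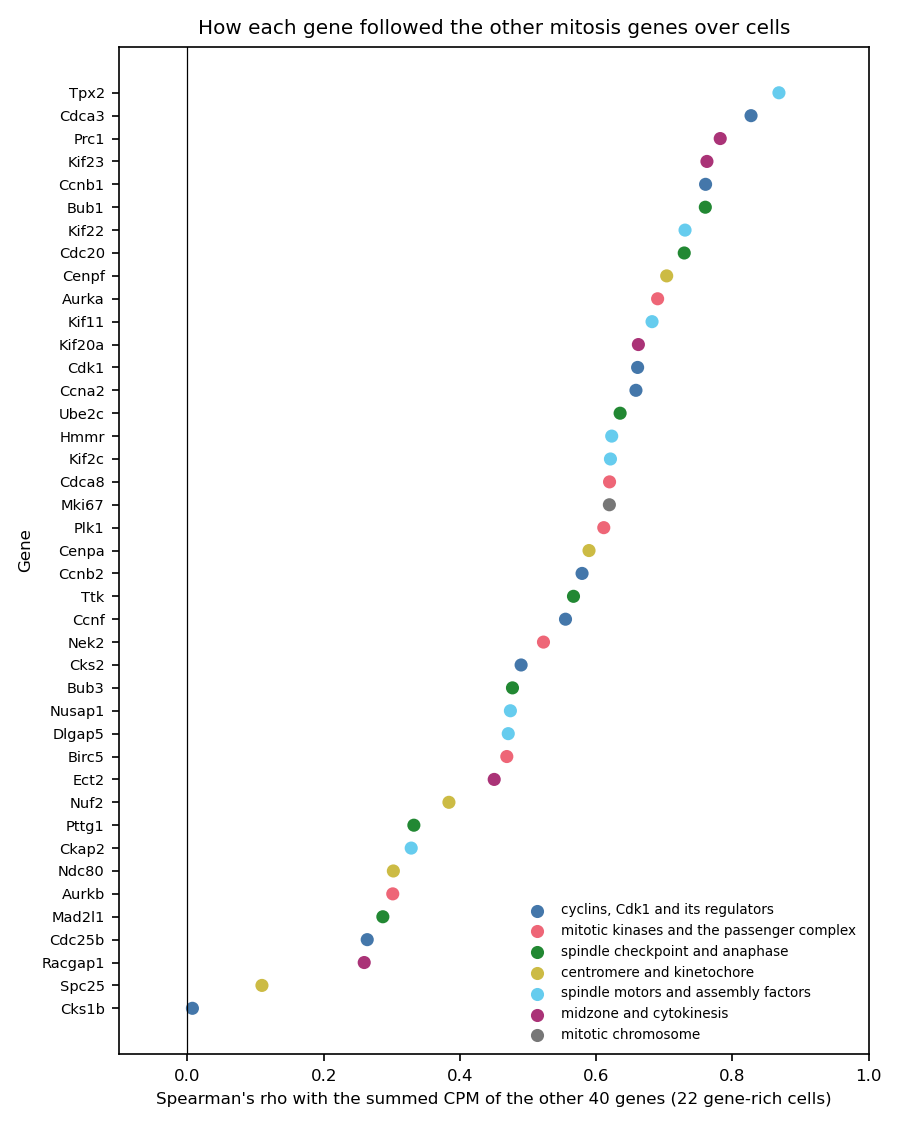
Spearman's rho of each of the 41 genes with the summed CPM of the other 40 over the 22 gene-rich cells, ordered from highest (top) to lowest and coloured by role. Tpx2 stands at 0.87 and Cks1b, at the bottom, at 0.01, and the genes of each role of several genes lie both low and high on the axis.

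Transcripts of proteins that work as partners were not always detected in the same cells. The overlap to be expected from each gene's detection alone was not computed, so no overlap below is read as a relation. Ccnb1 and Cdk1 were found together in 18 of the 22 gene-rich cells, Ccnb1 alone in 2, Cdk1 alone in 1 and neither in 1, with a rho of 0.41. As they were detected in 20 and 19 of the 22, the overlap itself says little about their relation. Bub1, detected in 13 cells, was never found without Bub3, which was present alone in 8 cells. Bub3 was in 21 of the 22, so this overlap was nearly fixed by its detection. Aurka and its activator Tpx2 were together in 10 cells, with Tpx2 alone in 7 (rho 0.57), and Prc1 and Kif20a together in 13 (rho 0.70). Kif23 and Racgap1, the subunits of centralspindlin, were together in 13 cells, yet their levels were hardly related (rho 0.07). Nuf2 and Ndc80 were together in 7 cells, with Nuf2 alone in 8 and Ndc80 alone in 2 (rho 0.01). Nuf2 and Spc25, of the same complex, were also together in 7 cells, with a rho of 0.33. For Aurkb and Cdca8 the numbers were 9 together, 5 and 3 alone and 5 with neither (rho 0.22). Birc5 and Cdca8, of the same complex, were together in 8 cells (rho 0.51). Over the 15 pairs of partners examined, rho ran from 0.01 for Nuf2 with Ndc80 to 0.70 for Prc1 with Kif20a. At these levels many cells hold few molecules of a gene, and a gene not detected is not shown to be absent.

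Beyond the 41, the genes most like them over the gene-rich cells were sought among the 3972 that averaged 20 CPM or more there and were detected in 11 or more of those cells. The 10 with the highest rho with the summed level were Spag5 (0.81), Kif20b (0.79), Ns5atp4 (0.67), Tuba1c (0.67), Ppp1cb (0.66), a record with no matched symbol (0.64), Gpn3 (0.64), Nle1 (0.64), Asf1b (0.64) and C8h15orf39 (0.63). The median over all candidates was 0.01. Spag5, a spindle and kinetochore protein, was detected in 11 of 22 cells at up to 357 CPM, and Kif20b, a mitotic kinesin, in 14 at up to 459 CPM. Tuba1c, an alpha tubulin, was in all 22, from 926 to 8918 CPM with a median of 3391, and was at 4011 CPM in bulk.

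Of a wider list of 113 other mitosis genes, 90 were measured, and 28 of these were detected in at least 17 cells. Their summed level was 9277 ± 3798 CPM in the cells (SD, n = 34) and 10335 CPM in bulk. Over the gene-rich cells it had a rho of 0.74 with the sum of the 41. Singly, 17 of the 90 had a rho of at least 0.5, a count given without the share of all genes. Among them were G2e3 (0.65), Incenp (0.63), the scaffold of the passenger complex, Cep55 (0.61), which acts in the last step of cytokinesis, and Hmgb2 (0.60). The median of the 90 was 0.28, beside 0.01 for the 3972 candidates above. Subunits of the anaphase-promoting complex lay on both sides of 0, from −0.37 for Anapc11 (18 cells) to 0.50 for Cdc27 (17 cells). Of the 16 measured regulators of G2/M transcription only Foxm1, a factor that activates many of these genes, reached 0.5 (rho 0.61). It was in 9 cells at 22.2 ± 61.5 CPM and had no bulk read. Mybl2, which encodes B-Myb, was in 12 cells (rho −0.28). The NF-Y genes Nfya, Nfyb and Nfyc were in 16, 22 and 14 cells (rho −0.04, 0.11 and 0.27), and Rbbp4, a MuvB subunit, was in 31 (rho −0.18).

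The mitosis genes did not follow the S phase genes. Of the 42 genes of the S phase list, which holds replication factors and enzymes of nucleotide supply, 36 were measured and 21 were detected in at least 17 cells. Of the mitosis genes 14 of 41 reached that. Over the gene-rich cells the sums of both sets had a rho of −0.00 (0.24 over all 34 cells, 0.10 without the gene-rich cells that held Col1a2). C37, C25 and C17 combined high mitosis sums of 12917, 10881 and 9210 CPM with S phase sums of 4005, 2912 and 2537 CPM. C23, C32, C40, C72 and C54 held the highest S phase sums, 10584 to 12495 CPM, with mitosis sums of 1171 to 3938 CPM. C05, C96 and C80, with mitosis sums of 6908 to 9648 CPM, had S phase sums of 7147 to 7773 CPM, nearer to the gene-rich median of 6895 CPM. C10, C43 and C15 were low in both, at 659 to 1093 CPM for mitosis and 1351 to 3122 CPM for S phase. No S phase gene had a rho of 0.5 with the mitosis sum. The closest was Gmnn, the inhibitor of replication licensing that is destroyed in anaphase (0.46, 23 cells), and the lowest was Rfc2 (−0.69, 20 cells). Rrm2 (31 cells) stood at 0.26.

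**Figure D4:**
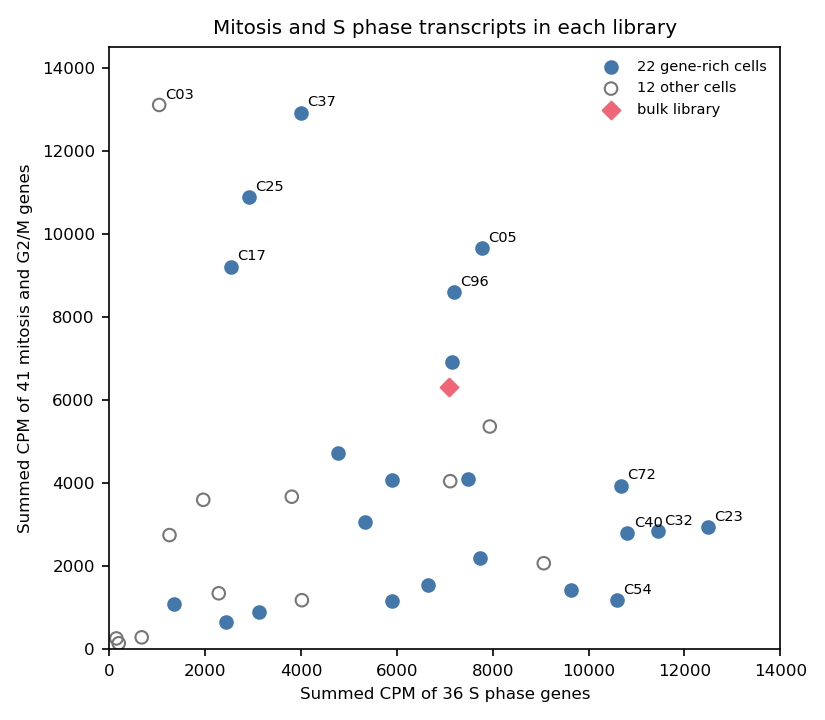
Summed CPM of the 41 mitosis and G2/M genes (vertical) against summed CPM of 36 S phase genes (horizontal) in each library, with filled points for the 22 gene-rich cells, open points for the 12 other cells and a diamond for the bulk library. C37, C25 and C17 lie at the upper left, C23, C32, C40, C72 and C54 at the lower right and C05 and C96 high on the vertical and midway on the horizontal axis, and the bulk library lies at 6303 CPM for mitosis and 7088 CPM for S phase.

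The bulk library was then compared with the mean of the cells. The summed level of the 41 genes in the cells was 0.628 of that in bulk (0.560 to 0.706, an interval from the counting error of the bulk reads alone), and in the gene-rich cells 0.698 (0.623 to 0.785). Of the 34 cells, 7 lay above the bulk library and 27 below. Other lists were lower in the cells too, with a ratio of 0.630 (0.585 to 0.680) for the core hypoblast markers and 0.777 (0.698 to 0.868) for the S phase genes. Of the 34 members with a bulk read, 28 (82.4%) were lower in the cells' mean than in bulk, against 68.3% of all 4741 genes with a bulk read. On the log2(CPM + 1) scale, which understates the change of low genes, 17 of 41 members (41.5%) were at least 2-fold lower in the cells, where the background was 21.9 percent of 9023 genes. With the gene-rich cells alone 11 of 41 were so (26.8%, background 20 percent), and with each gene's median over cells 33 of 37 (89.2%, background 68.8 percent). At least 2-fold higher were 12 members (29.3%), where the background was 53.4 percent. Many genes with no bulk read enter these shares. Over genes that averaged 10 CPM or more the members' shares were 42.5% lower and 27.5% higher, where the background was 30.6 and 34.8 percent. The median log2 ratio of cells over bulk was −0.74 for the members and 1.61 for all genes. With genes that had no bulk read at their lower bound, or left out where the cells' mean was under the floor, it was −0.83 for 37 members and −0.45 for 5266 genes. In a bulk library, the number of cells in mitosis and the RNA per such cell cannot be told apart.

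By role, the kinases and the passenger complex differed most, with 293 ± 395 CPM in the cells and 1061 CPM in bulk, a ratio of 0.276 (0.209 to 0.371). The midzone and cytokinesis genes stood at 699 ± 1055 CPM in the cells and 1740 CPM in bulk (ratio 0.401, 0.323 to 0.505). Racgap1 alone held 41 of this role's 82 bulk reads. In the cells Kif23 made up 286 of the 699 CPM, with 55.9% of its signal in C03, and was higher than in bulk. The spindle motors and assembly factors had a ratio of 0.573 (0.432 to 0.777) and the checkpoint and anaphase genes one of 0.720 (0.548 to 0.968). The cyclin role was about level, at 1179 ± 954 CPM in the cells and 1231 CPM in bulk (ratio 0.958, 0.741 to 1.26). The centromere and kinetochore genes had a ratio of 2.49, but on 4 bulk reads, and the interval of 0.972 to 9.14 includes 1.

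Of 7 members with at least 10 bulk reads, 4 (57.1%) were at least 2-fold lower in the cells, where the background was 39.9 percent of the 1055 genes with as many bulk reads. Racgap1 was at 106 ± 166 CPM in the cells and 870 CPM in bulk (41 reads), a ratio of 0.121 (0.0896 to 0.169), and of 0.186 for the gene-rich cells. Plk1 was at 60.7 ± 127 CPM in the cells and 467 CPM in bulk (22 reads), a ratio of 0.130 (0.0859 to 0.208). For both, the bulk level was above that of every cell. The bulk interval of Racgap1, 624 to 1180 CPM, lay above its highest cell (522 CPM in C32). That of Plk1, 293 to 707 CPM, included its highest cell (438 CPM in C47). Kif20a was at 102 ± 155 CPM in the cells and 382 CPM in bulk (18 reads), a ratio of 0.267 (0.169 to 0.450), and of 0.411 for the gene-rich cells. Ccnb1 was at 344 ± 546 CPM in the cells and 722 CPM in bulk (34 reads), a ratio of 0.477 (0.341 to 0.689), and of 0.585 for the gene-rich cells, which is less than 2-fold lower. Cdc20, at 279 ± 873 CPM in the cells and 467 CPM in bulk (22 reads), had a ratio of 0.597 (0.394 to 0.952), and of 0.289 without C03. Bub3 (0.657, 0.392 to 1.20) and Prc1 (0.514, 0.301 to 0.966) were the other members with at least 10 bulk reads. The remaining members with a bulk read held 1 to 9 reads each.

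In the other direction, 7 of the 12 members counted as higher in the cells had no bulk read. A count of 0 allows up to 3 reads in the bulk library, or 63.7 CPM. Against that floor, Cks1b was at least 3.24-fold higher in the cells (206 ± 279 CPM), and at least 2.61-fold without C31. At the cells' mean level a library of this depth would hold 9.72 reads of Cks1b. Ccnb2 was at least 2.49-fold higher (158 ± 296 CPM), and at least 1.81-fold without C94, a cell with 6288 reads. Ccnf was at least 2.01-fold higher, but without C74 its mean of 29.4 CPM was under the floor. The means of Pttg1, Ndc80, Nuf2 and Spc25 were under the floor as well, so no fold is given. The remaining 5 were Kif22, Mad2l1, Mki67, Cenpf and Kif23, on 1 to 6 bulk reads each. Kif22 was at 167 ± 253 CPM in the cells and 42.4 CPM in bulk, a ratio of 3.93 (1.09 to 32.4). The ratio of Kif23 was 2.25 (1.03 to 6.13) and 1.02 without C03. For the other 3 the interval includes 1. Mki67 had a ratio of 2.50 (0.978 to 9.19), and 1.56 without C39. Cenpf had a ratio of 2.29 (0.633 to 18.9), and 1.80 without C05. Mad2l1 had a ratio of 3.25 (0.584 to 128) on 1 read.

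**Figure D5:**
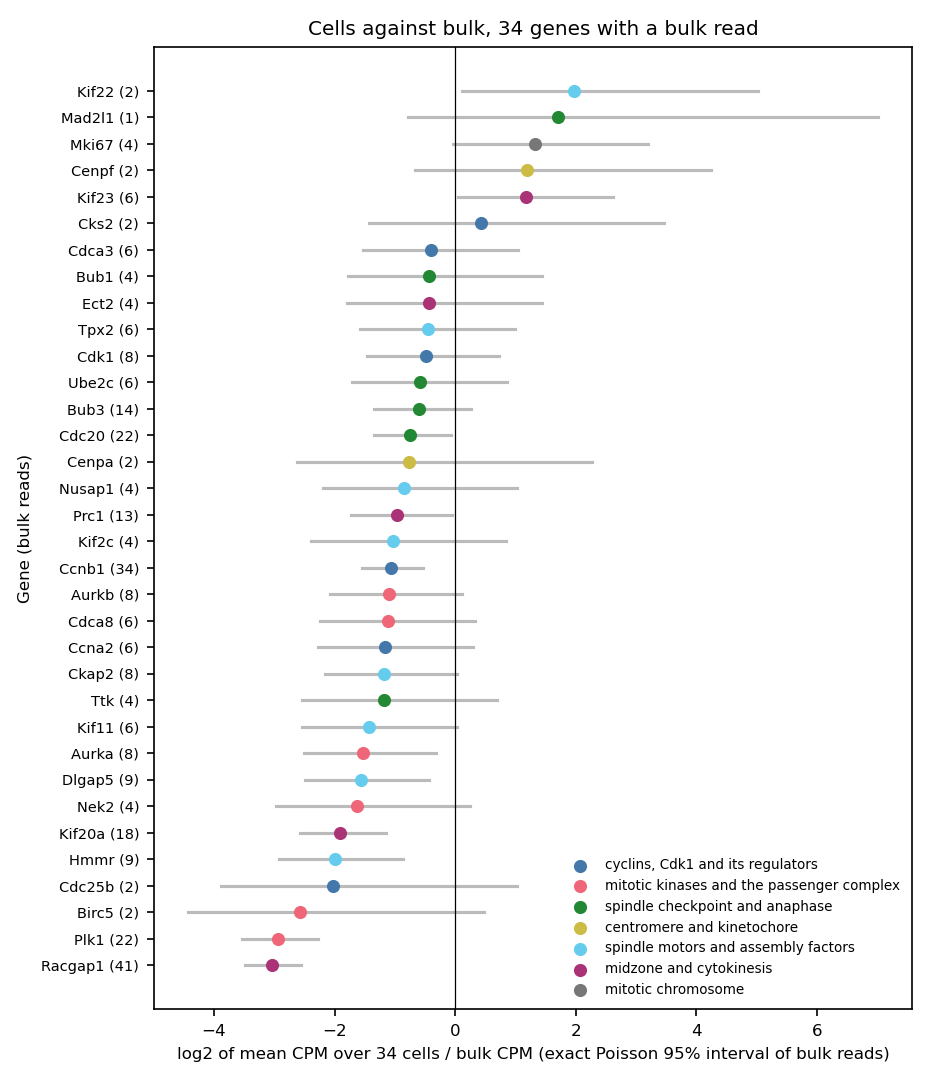
Ratio of the mean CPM over 34 cells to the bulk CPM for the 34 genes with a bulk read, as log2 of the ratio, with lines for the exact Poisson 95% interval of the bulk reads and the number of those reads after each name. Racgap1 and Plk1 lie farthest to the left on 41 and 22 reads, and the genes to the right of 0 rest on 1 to 6 bulk reads.

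Markers of other cell types moved with this comparison. The 8 measured fibroblast markers summed to 315 ± 814 CPM in the cells (0 to 3111) and 1698 CPM in bulk. Col1a1 (58.8 CPM in the cells, 828 CPM in bulk) and Col1a2 (135 CPM in the cells, 849 CPM in bulk) were higher in bulk. Col5a1 was too, on 1 bulk read. Postn, Prrx1, Col3a1 and Twist1 went the other way, averaging 44.9, 71.5, 1.65 and 0.40 CPM in the cells with no bulk read. Thy1 had no read in any library. The 6 measured trophoblast markers summed to 82.2 ± 206 CPM in the cells (0 to 848) and 849 CPM in bulk. Plac1 was at 59.3 CPM in the cells and 552 CPM in bulk (26 reads), and Tfap2c at 22.9 and 42.4 CPM. Cdx2, Elf5 and Gata3 had no read in any library, and Prl3d1 had 12 reads in bulk and none in the cells. The 5 blood markers summed to 74.2 ± 271 CPM in the cells and 297 CPM in bulk. Gata1 made up nearly all of the cells' sum, at 74.1 CPM in the cells and 84.9 CPM in bulk. Hba-a1 and Hbb had no read, and Lcp1 had 10 reads in bulk and none in the cells. The 6 pluripotency markers summed to 145 ± 493 CPM in the cells and 42.4 CPM in bulk. The part of these markers in the difference between cells and bulk was not tested. Col1a2 was detected in 4 cells, of which C17 (9210 CPM, 36 members) and C46 (3052 CPM, 23 members) held mitosis transcripts widely and C14 (140 CPM) and C30 (257 CPM) did not.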

How the data were processed

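Messenger RNA was measured in 34 single cells and 1 bulk library. The authors deposited whole-number read counts per transcript record in 1 table. The build was rn5 and the tool named is TopHat2, per the submitters' processing notes. How reads were counted, with which annotation, and how multiply mapped reads were handled is not given in the sources used here, so reads shared with near-identical copies cannot be judged. The labels mention no molecular identifiers, and even counts made up 59.8% to 72.6% of nonzero counts in the cells and 79.9% in bulk, so intervals and floors, which cover counting error only, are too narrow. Of 17201 records, 16215 matched a symbol in the RefSeq gene table (GRCr8, names only), and the other 986 held 4.11% of the reads and stayed in the totals. Each member had 1 record. None of 561 pairs of cells held identical counts.

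CPM were computed from library totals with Python 3.11.15, numpy 2.4.6, pandas 2.3.3 and scipy 1.17.1, and figures were drawn with matplotlib 3.10.9. edgeR 4.0.16 in R 4.3.3 gave the alternative TMM scaling only. Detection was set at 5 CPM. Cells were compared with bulk on the log2(CPM + 1) scale, with a fold of 2, for genes whose levels in both averaged 1 CPM or more. Correlations are Spearman's rho over the 22 gene-rich cells, without p-values. Alternatives were detection at 1 read or 50 CPM, gene-rich or all cells, the median over cells, TMM, pseudocounts of 0.1 and 10 CPM, other filters, thinning to the bulk total, Pearson's r of log2 values and leaving out the cell with the largest sum (C03) or the cells with Col1a2. The ratio of cells over bulk was checked on simulated data in which cells differed by counting error alone. Thinning and the Poisson interval were checked as well. Detection shares, correlations and promoter counts were not checked in this way. No doublet caller was run and no cell was removed. The members and lists were chosen with earlier results of these data known. Named outside the members were genes of the fixed lists and the 10 genes most like the set.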

Additional observations from a re-analysis of the deposited data

How the results depend on the processing

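The bulk comparison rests on a single library, of no named culture, in which 1 read is 21.2 CPM and 7 of 41 members had at least 10 reads. Of the alternative values, 45 stayed within the spread between cells, the counting interval of a ratio, 1.5 times of a count or 0.1 of a rho. A further 14 moved beyond these limits. For the mean sum the limit was an SD of 3610 CPM on a mean of 3957, which hardly any setting could pass. All 41 members already passed the filter on low values, so leaving it out could change none of their values. The 45 is therefore not a measure of stability. The rho with the library total over all cells was the 1 value counted as reversed, sign changes of a rho within 0.1 of 0 not being counted. At a detection limit of 50 CPM, 4 members in place of 14 were detected in at least 17 cells, and the median per cell was 8.5 in place of 16. In the gene-rich cells 30 were detected in at least 11 of 22, the median per cell was 24.5, 11 members in place of 17 were at least 2-fold lower than in bulk, and the median log2 ratio was −0.37 in place of −0.74. With TMM scaling the ratio of the sums was 0.767 in place of 0.628 and the median log2 ratio −0.50. There 12 members in place of 17 were at least 2-fold lower in the cells. With medians over cells the ratio was 0.459, 3 members were higher and 33 lower, and the median log2 ratio was −5.47, beside −3.53 for all genes. The rho of the mitosis sum with the S phase sum was −0.00 over gene-rich cells, 0.24 over all cells and 0.10 when cells holding Col1a2 were left out, which was chosen after seeing the data. Its rho with the library total was −0.41, and 0.049 over all cells. The causes were not tested. No paired analysis was possible because there is 1 bulk library and the labels give no replicate numbers.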

Other observations

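Genes that govern the step from G1 into S phase were also read in these cells. Of 21 G1 cyclins, their kinases and CDK inhibitors, 20 were measured, and 5 were detected in at least 17 cells. Cdk4, the kinase of the D-type cyclins, was in 27 cells and Cdk2, the kinase of the E-type cyclins, in 24. Ccnd3 was in 21 cells and Ccnd1 in 12. The sum of the list was 1455 ± 708 CPM in the cells (SD, n = 34) and 1252 CPM in bulk, a ratio of 1.16 (0.901 to 1.53). Of the inhibitors, Cdkn1a, a target of p53 that stops the cycle, was in 13 cells and Cdkn1b in 11, and Cdkn2a had no read in any library.

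Over the gene-rich cells the sum of this list had a rho of −0.12 with the mitosis sum. The lowest single values were those of Ccng1 (−0.48, 25 cells), Ccne1, the E-type cyclin of S phase entry (−0.47, 12 cells), and Cdkn1a (−0.40). The highest was that of Rb1 (0.49), which was detected in 5 of 34 cells. These are descriptions over 22 cells.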
